A study of Homo sapiens with 24 samples.

Results

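The genes described here are 10 enzymes of serine synthesis, the folate cycle and asparagine synthesis: PHGDH, PSAT1, PSPH, SHMT1, SHMT2, MTHFD1, MTHFD2, MTHFD1L, ALDH1L2 and ASNS. They were chosen by name for their place in these pathways, with earlier results of these data known, and all 10 were found among the 28307 rows of the count table.

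RNA was sequenced from SUM159, a human breast cancer cell line, and from SW620, a human colon cancer cell line. Adherent cells received nifuroxazide (NIF), a 5-nitrofuran, or its vehicle DMSO for 30 h, and were then sorted by their aldehyde dehydrogenase (ALDH) activity in the ALDEFLUOR assay. Cells with bright signal are called ALDHbr and those with low signal ALDHneg. This gave 8 groups of 3 libraries: SUM159 ALDHbr DMSO, SUM159 ALDHbr NIF, SUM159 ALDHneg DMSO, SUM159 ALDHneg NIF, and the same for SW620. The drug was added before the sort, so a group holds the cells that had that ALDH signal after treatment. Each tumour type is represented by 1 line. The labels give no NIF concentration for these cultures, and a change in RNA per cell cannot be told apart from a change in which cells of the line entered the gate.

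Serine is made from a glycolytic intermediate in 3 steps, catalysed by PHGDH, PSAT1 and PSPH. Serine hydroxymethyltransferase then moves a carbon from serine to folate, in the cytosol (SHMT1) or in mitochondria (SHMT2). Mitochondrial MTHFD2 and MTHFD1L carry that carbon on to formate, ALDH1L2 releases it as carbon dioxide, and cytosolic MTHFD1 takes up formate for purine and thymidylate synthesis. ASNS makes asparagine from aspartate and glutamine, and like PHGDH, PSAT1, SHMT2 and MTHFD2 it is a textbook target of ATF4, the transcription factor of the amino acid response.

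A set of 3 motifs was searched in RefSeq windows of the members (250 bases before to 50 after a transcription start, GRCh38.p14), and the matches to the ATF4 core and the E-box that lay before the start are printed, since these letters are the only regulatory sequence at hand to set beside the expression values. Windows were found for 7 of the 10 members. The ATF4 core TGATGNAA, searched on both strands, lay in windows of ASNS and MTHFD1L, and in those of 4.46% of all 27305 genes with a window. For ASNS it lay only in the window of the first of 2 listed starts, from which its position is given. In the lines below the capitals mark the motif, and each stretch is given 5′ to 3′ along its gene.
ASNS, chr7:97872458-97872487, minus strand, motif at -68 to -61 from the start: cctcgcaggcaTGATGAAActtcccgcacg
MTHFD1L, chr6:150866346-150866375, plus strand, motif at -129 to -122 from the first of 4 listed starts: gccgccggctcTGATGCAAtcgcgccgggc
MTHFD1L, chr6:150866320-150866349, plus strand, E-box at -154 to -149 from the same start: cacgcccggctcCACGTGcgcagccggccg
MTHFD1, chr14:64388326-64388352, plus strand, E-box at -15 to -10 from the start: ccagtccctaagCACGTGggttgggtt
The E-box CACGTG, a motif bound by MYC and related factors that reads the same on both strands, was found in windows of MTHFD1 and MTHFD1L and of 8.77% of genes. An NRF2 element, TGACNNNGC, was found in the window of MTHFD2, just after the start, and in windows of 16.1% of genes. None of these 3 motifs was in the windows of PHGDH, PSAT1 or SHMT1, which says only that these letters are not within those 300 bases. PSPH, SHMT2 and ALDH1L2 had no window.

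Library totals ran from 30253187 to 43127948 counts over the 24 libraries. The 10 colon epithelial markers summed to 1946 to 2525 CPM (counts scaled to library size) in SW620 libraries and to 0.209 to 8.34 in SUM159 libraries. Of these, 8 averaged over 1 CPM in SW620, while CDX1 and CDX2 averaged 0.312 and 0.823 CPM. The 10 mesenchymal markers summed to 446 to 889 CPM in SW620 and to 10405 to 14348 CPM in SUM159 libraries. Most of the SW620 sum was MSN, at 639 CPM. There 4 mesenchymal markers averaged over 1 CPM, and VIM averaged 0.200 CPM. Of 4 blood cell markers, 1 exceeded 1 CPM in SW620: LYZ, at 1396 CPM, while PTPRC, CD3E and HBB averaged below 0.05 CPM. ALDH1A1, the ALDH isoform most tied to this assay, was at 104 to 153 CPM in SUM159 ALDHbr DMSO libraries against 0.419 to 0.542 in ALDHneg, but at 1257 to 1357 against 883 to 921 CPM in SW620, where the ALDHneg cells thus still carried it. Under NIF it was at 918 to 976 and 534 to 560 CPM in the same SW620 populations, and its part in the members' values was not tested. ALDH1A3, another ALDH isoform, went the other way in SW620 under DMSO, at 134 to 144 CPM in ALDHbr and 173 to 182 CPM in ALDHneg cells. In SUM159 under DMSO ALDH1A3 was at 0.476 to 0.888 CPM in ALDHbr and 0.141 to 0.271 CPM in ALDHneg cells. Levels below are CPM, scaled by the trimmed mean of M-values (TMM) within a line. Differences are log2 fold changes from edgeR, called where the Benjamini-Hochberg adjusted p over all tested genes was under 0.05.

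In SW620 cells NIF changed nearly every measured member, and in the same direction in both ALDH populations. PHGDH, PSAT1, SHMT2, MTHFD2, MTHFD1L and ASNS rose in ALDHbr and in ALDHneg cells, from 1.22-fold for MTHFD1L in ALDHbr cells to 6.33-fold for ASNS in ALDHneg cells. The cytosolic enzymes SHMT1 and MTHFD1 fell. In ALDHbr cells 6 of 9 tested members were called higher and 2 lower, beside 21.4% and 21.9% of all 13953 tested genes. In ALDHneg cells 7 were called higher and 2 lower, beside 22.3% and 22.7%. The median log2 fold change of the tested members was 0.61 in ALDHbr and 0.68 in ALDHneg cells, and that of all tested genes was -0.01 in both. ALDH1L2 fell below the filter on low counts in SW620.

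**Figure D1:**
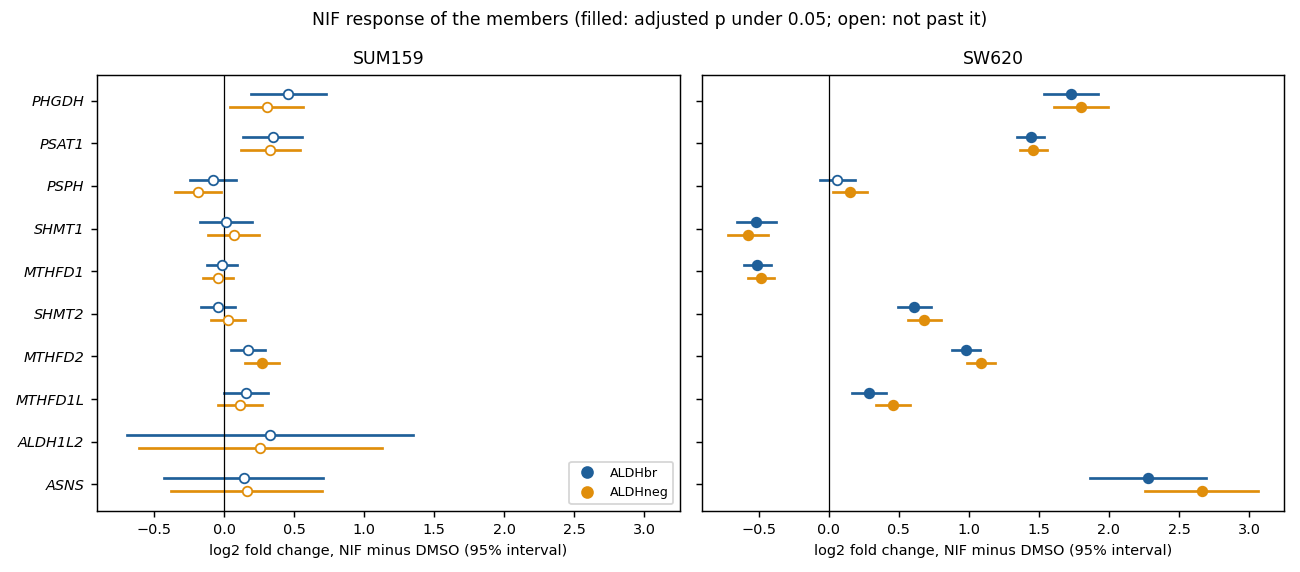
Log2 fold change of each member (horizontal axis, NIF minus DMSO, 3 libraries against 3) with its 95% interval, in SUM159 (left) and SW620 (right), for ALDHbr (blue) and ALDHneg (orange) cells. Filled points passed an adjusted p of 0.05. In SW620 the 2 cytosolic enzymes SHMT1 and MTHFD1 lie left of 0 and the mitochondrial and serine enzymes right of it, with PSPH nearest to 0, while in SUM159 only MTHFD2 in ALDHneg cells is filled.

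PHGDH, the first and committed enzyme of serine synthesis, rose from 33.5, 26.8 and 34.5 CPM in the 3 DMSO libraries of SW620 ALDHbr cells to 96.9, 104 and 114 CPM under NIF. In ALDHneg cells it went from 33.1, 30.7 and 29.1 CPM to 108, 112 and 104 CPM. Every NIF library lay far above every DMSO library. The log2 fold changes were 1.73 ± 0.09 (SE; edgeR adjusted p = 3.54e-09) in ALDHbr and 1.80 ± 0.09 (adjusted p = 1.98e-09) in ALDHneg cells. PSAT1, the aminotransferase of the next step, rose from 143, 139 and 138 CPM to 379, 385 and 378 CPM in ALDHbr cells. In ALDHneg cells its DMSO libraries held 153, 161 and 162 CPM and its NIF libraries 450, 424 and 436 CPM. That is 2.72-fold (adjusted p = 2.17e-11) and 2.75-fold (adjusted p = 1.98e-11), and again the groups were well apart.

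PSPH, the phosphatase that releases serine, stood apart from the other enzymes of its pathway. In SW620 ALDHbr cells it measured 71.0, 63.6 and 67.6 CPM under DMSO and 66.8, 72.1 and 72.3 CPM under NIF, so the groups overlapped (log2 fold change 0.06 ± 0.06 SE, adjusted p = 0.407). In ALDHneg cells it went from 59.4, 61.4 and 60.0 CPM to 67.0, 69.5 and 64.1 CPM, without overlap. That call was slight (0.15 ± 0.06, adjusted p = 0.0457) and was lost in 9 alternative fits, 5 of which left out a single library of that population (NIF replicate 1 or 2, or any of the DMSO replicates), with an adjusted p of 0.0508 to 0.164 without them.

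Of the mitochondrial folate enzymes, MTHFD2, which oxidises the folate-bound carbon, changed most. It went from 207, 197 and 198 CPM under DMSO to 384, 399 and 402 CPM under NIF in SW620 ALDHbr cells, and from 195, 208 and 208 CPM to 433, 438 and 428 CPM in ALDHneg cells. The groups were well apart (1.97-fold and 2.13-fold higher under NIF, adjusted p = 1.56e-09 and 3.79e-10). SHMT2, the mitochondrial serine hydroxymethyltransferase, went from 282, 263 and 301 CPM to 416, 424 and 451 CPM in ALDHbr cells. In ALDHneg cells it went from 273, 274 and 278 CPM to 443, 450 and 428 CPM. These were rises of 1.53-fold (adjusted p = 8.1e-07) and 1.60-fold (adjusted p = 2.22e-07).

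MTHFD1L, which releases formate in mitochondria, had the smallest rise of the group. Under DMSO it measured 60.4, 55.1 and 63.2 CPM in ALDHbr cells, and under NIF 71.1, 71.9 and 74.7 CPM. In ALDHneg cells the values were 58.8, 58.8 and 58.4 CPM, then 83.3, 81.1 and 78.0 CPM. All NIF libraries were above all DMSO libraries in both populations (0.29 ± 0.06, adjusted p = 0.00103, and 0.46 ± 0.06, adjusted p = 1.34e-05). ALDH1L2, the mitochondrial formyl-folate dehydrogenase, was close to undetected: 0 to 9 counts per SW620 library and 3 to 34 per SUM159 library. In the 3 SW620 libraries without a count, the 0 allows a level of up to 0.0743 to 0.0831 CPM. No response of ALDH1L2 was detectable at this depth.

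The 2 cytosolic members moved the other way in SW620. SHMT1 fell from 81.4, 74.7 and 86.2 CPM to 54.0, 55.7 and 59.9 CPM in ALDHbr cells. In ALDHneg cells it fell from 75.6, 74.0 and 71.0 CPM to 51.2, 46.2 and 50.5 CPM. The groups did not overlap, with log2 fold changes of -0.52 ± 0.07 (adjusted p = 2.35e-05) and -0.58 ± 0.07 (adjusted p = 7e-06). MTHFD1, the trifunctional cytosolic enzyme, fell from 203, 206 and 210 CPM to 146, 145 and 144 CPM in ALDHbr cells. In ALDHneg cells its values were 216, 207 and 204 CPM under DMSO and 148, 148 and 153 CPM under NIF. Both changes were close to -0.50 (-0.51 ± 0.04, adjusted p = 5.58e-07, and -0.48 ± 0.04, adjusted p = 7.27e-07).

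Because both partners of a compartment pair come from the same library, their ratio of counts needs no scaling. SHMT2 counts over SHMT1 counts averaged 3.49 ± 0.03 (SD, n = 3) in SW620 ALDHbr cells under DMSO and 7.61 ± 0.08 under NIF. In ALDHneg cells the ratio went from 3.74 ± 0.16 to 8.95 ± 0.68. MTHFD2 over MTHFD1 went from 0.974 ± 0.041 to 2.73 ± 0.09 in ALDHbr and from 0.975 ± 0.064 to 2.90 ± 0.09 in ALDHneg cells. MTHFD1L over MTHFD1 rose from 0.289 ± 0.018 to 0.501 ± 0.016 and from 0.281 ± 0.007 to 0.541 ± 0.028. In each of these 6 SW620 comparisons all NIF ratios exceeded all DMSO ratios. The two-sided exact permutation p was 0.1, the smallest that 3 libraries against 3 allow, and 0.12 after Benjamini-Hochberg adjustment over the 12 ratio tests of both lines. In SUM159 the SHMT2 over SHMT1 ratio was 11.0 ± 1.7 under DMSO and 10.4 ± 0.2 under NIF in ALDHbr cells, and 7.42 ± 0.51 and 7.27 ± 0.66 in ALDHneg cells, with overlapping libraries (exact permutation p = 0.7 and 0.6). MTHFD2 over MTHFD1 was 0.637 ± 0.025 and 0.726 ± 0.030 in SUM159 ALDHbr cells, and 0.774 ± 0.028 and 0.963 ± 0.044 in ALDHneg cells, without overlap (exact permutation p = 0.1 for each). MTHFD1L over MTHFD1 went from 0.227 ± 0.011 to 0.255 ± 0.020 and from 0.236 ± 0.008 to 0.264 ± 0.013 in the same populations, also without overlap (exact permutation p = 0.1 for each).

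**Figure D2:**
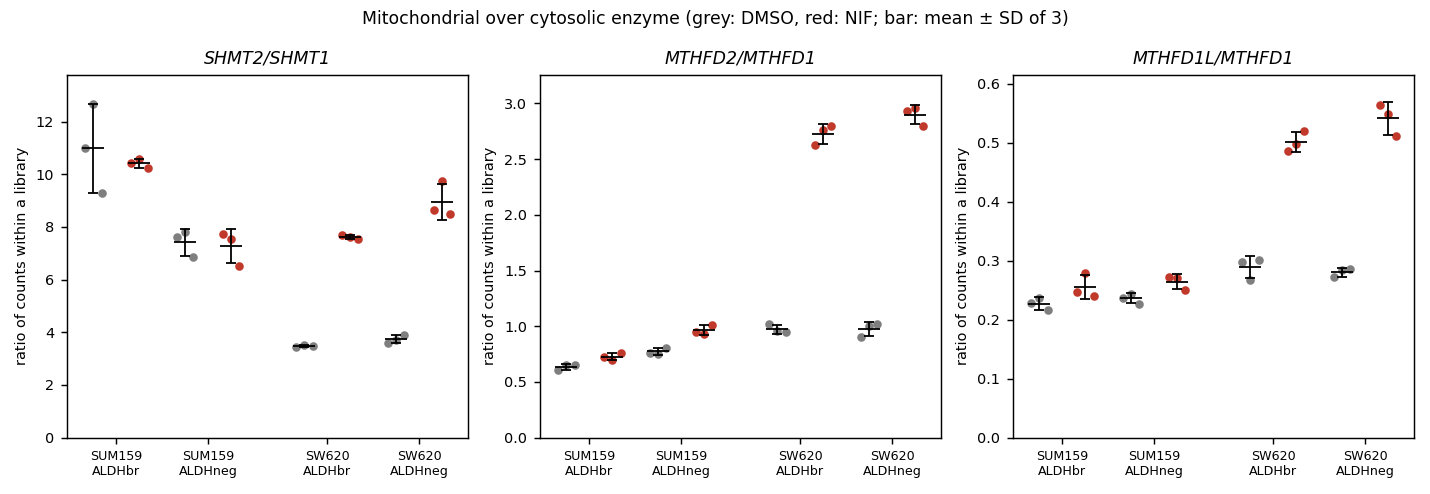
Ratio of counts of a mitochondrial enzyme to its cytosolic counterpart in each library (vertical axis, no unit), for SHMT2/SHMT1, MTHFD2/MTHFD1 and MTHFD1L/MTHFD1. Grey points are DMSO and red points NIF libraries, with the mean ± SD of 3. In SW620 the red points stand well above the grey ones in all 3 panels, for example 2.73 against 0.974 for MTHFD2/MTHFD1 in ALDHbr cells, and in SUM159 the groups lie closer, for example 0.726 against 0.637 for the same ratio and population.

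ASNS had the largest fold change of the members, at a very low level. SW620 ALDHbr libraries held 36, 37 and 29 counts under DMSO and 203, 123 and 116 under NIF, which is 0.866, 1.09 and 0.790 CPM against 5.61, 3.98 and 3.65 CPM. ALDHneg libraries held 32, 39 and 32 counts under DMSO and 234, 221 and 207 under NIF. In ALDHbr cells the lowest NIF library had 116 counts and the highest DMSO library 37. The log2 fold changes were 2.28 ± 0.19 (adjusted p = 4.74e-07) and 2.66 ± 0.19 (adjusted p = 5.9e-08). These values are uncertain as a level: 99.4% of the annotated span of ASNS is shared with the read-through gene CZ1P-ASNS, which the table lists separately at 0 to 7 counts per library, and how reads common to both were counted is not given in the sources used here. The ATF4 core lay in windows of ASNS and of MTHFD1L. For MTHFD1L the SW620 changes were 0.29 in ALDHbr and 0.46 in ALDHneg cells. The core was not in windows of PHGDH, PSAT1 or MTHFD2, which also rose. The part of this motif in the members' values was not tested.

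In SUM159 cells the responses were small. In ALDHbr cells 0 of 10 members were called, beside 0.936% of 14953 genes called higher and 2.23% lower, while 3 members and 2503 of all genes had an unadjusted p under 0.05. DESeq2 called 3 members and 341 of all genes higher there. In ALDHneg cells MTHFD2 was called higher and no member lower, beside 1.10% and 2.20% of genes. There 4 members and 2510 of all genes had an unadjusted p under 0.05, and DESeq2 called 2 members and 356 of all genes higher. The members' median log2 fold change was 0.15 in ALDHbr and 0.14 in ALDHneg cells. Libraries of SUM159 with the same replicate number deviated together. In the fit with the replicate block 4 members were called higher in ALDHbr cells (PHGDH, PSAT1, MTHFD2 and MTHFD1L) and 3 in ALDHneg cells (PHGDH, PSAT1 and MTHFD2), with none lower. In that paired fit 5.77% of genes were called higher and 7.56% lower in ALDHbr cells, and 6.10% and 7.08% in ALDHneg cells.

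PHGDH measured 39.9, 37.6 and 47.0 CPM in SUM159 ALDHbr cells under DMSO and 54.3, 48.4 and 68.2 CPM under NIF. In ALDHneg cells it measured 71.6, 67.0 and 70.9 CPM, then 88.5, 72.2 and 97.9 CPM. Every NIF library was above every DMSO library of its population, and replicate 2 was the lowest in all 4 groups. The log2 fold change was 0.46 ± 0.13 (adjusted p = 0.0634) in ALDHbr and 0.30 ± 0.12 (adjusted p = 0.215) in ALDHneg cells, and with the replicate block 0.45 ± 0.07 (adjusted p = 8.29e-05) and 0.29 ± 0.06 (adjusted p = 0.00328). Without ALDHbr NIF replicate 2 or DMSO replicate 3, PHGDH also passed the test in ALDHbr cells without the block (0.57, adjusted p = 0.0384, and 0.56, adjusted p = 0.0454).

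PSAT1 went from 126, 114 and 142 CPM to 160, 140 and 186 CPM in SUM159 ALDHbr cells and from 151, 148 and 155 CPM to 189, 172 and 209 CPM in ALDHneg cells. The groups overlapped by 1 library in ALDHbr cells and were apart in ALDHneg cells. Its log2 fold changes were 0.35 ± 0.10 (adjusted p = 0.0789) and 0.33 ± 0.10 (adjusted p = 0.0897), and with the replicate block the adjusted p was 0.000109 and 0.000179. Without ALDHbr NIF replicate 2 it was called in ALDHbr cells also without the block (0.44, adjusted p = 0.0346).

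MTHFD2 went from 184, 200 and 197 CPM to 218, 210 and 227 CPM in SUM159 ALDHbr cells. In ALDHneg cells it went from 208, 219 and 218 CPM to 246, 258 and 273 CPM. Neither pair of groups overlapped. The change in ALDHneg cells was 0.27 ± 0.06 (adjusted p = 0.0188; replicate block 0.000261), and it missed the threshold without NIF replicate 3 (0.23, adjusted p = 0.1) or without DMSO replicate 1 (0.25, adjusted p = 0.0826). In ALDHbr cells it was 0.17 ± 0.06 (adjusted p = 0.125; replicate block 0.0116). MTHFD1L measured 65.7 to 72.0 CPM under DMSO and 72.0 to 83.7 CPM under NIF in SUM159 ALDHbr cells, a change of 0.15 ± 0.07 (adjusted p = 0.309; replicate block 0.033).

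The remaining members did not pass the test in SUM159 in either population, with or without the block. SHMT2 held 263 to 309 CPM over all 12 SUM159 libraries. MTHFD1 held 259 to 305 CPM, and SHMT1 22.8 to 28.9 CPM in ALDHbr and 38.8 to 46.4 CPM in ALDHneg cells. The 95% intervals of the log2 fold changes of SHMT2, MTHFD1 and SHMT1 lay between -0.18 and 0.25 over both populations. PSPH was at 26.9 to 35.4 CPM, and its log2 fold change was -0.08 ± 0.08 (edgeR adjusted p = 0.668) in ALDHbr cells. In ALDHneg cells it was -0.19 ± 0.08 (edgeR unadjusted p = 0.0299, adjusted p = 0.233; replicate block 0.0803). ASNS held 31 to 77 counts per library, and its intervals reached from -0.43 to 0.71, so a rise of the size seen in SW620 lay outside them.

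The difference between the lines was tested directly, as the NIF response in SW620 minus that in SUM159, over all 24 libraries. In ALDHbr cells 7 of 10 members were called, beside 23.1% of 16271 genes. The response was larger in SW620 for PHGDH (by 1.27 ± 0.16 on the log2 scale, adjusted p = 3.88e-06), PSAT1 (1.09 ± 0.12), SHMT2 (0.65 ± 0.08), MTHFD2 (0.80 ± 0.07) and ASNS (2.14 ± 0.33, adjusted p = 3.21e-05). It was more negative in SW620 for SHMT1 (-0.53 ± 0.11, adjusted p = 0.00101) and MTHFD1 (-0.49 ± 0.07). In ALDHneg cells 9 members were called, beside 22.4% of genes. These were the 7 named for ALDHbr cells together with PSPH (0.34 ± 0.10, adjusted p = 0.0107) and MTHFD1L (0.35 ± 0.10, adjusted p = 0.00837). ALDH1L2, counted among the 10, was not called. It passed the filter in this fit only through its SUM159 libraries, so no comparison is drawn from it. Line and tumour type cannot be told apart, and the libraries of the 2 lines may also have differed in batch, which the labels do not give.

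Without drug, the lines also differed in several members. In DMSO-treated ALDHbr cells 5 members were called higher in SW620 than in SUM159 and 1 lower, beside 39.6% and 41.7% of genes. With TMM sizes of all 24 libraries, SHMT1 was at 85.9 CPM in SW620 and 24.4 CPM in SUM159 (log2 difference 1.82 ± 0.08, adjusted p = 1.76e-16), and PSPH at 71.7 and 27.2 CPM (1.40 ± 0.07, adjusted p = 2.12e-15). MTHFD1 was lower in SW620 (-0.38 ± 0.05, adjusted p = 6.9e-08). PSAT1 (0.32 ± 0.08), SHMT2 (0.18 ± 0.06) and MTHFD2 (0.23 ± 0.05) were called higher with TMM but not when libraries were scaled to their totals alone (0.16, 0.03 and 0.08), a scaling that moves the median of all genes by -0.15. PHGDH (-0.21 ± 0.12, adjusted p = 0.0985) and MTHFD1L (-0.03 ± 0.07) were not called with TMM and were called lower by library totals (-0.37 and -0.19). ASNS was at 0.973 CPM in SW620 and 0.964 CPM in SUM159, a log2 difference of 0.01 ± 0.25. No comparison is drawn for ALDH1L2, since it passed the filter only through its SUM159 libraries.

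Members can be ranked against each other only per length. For this, CPM with TMM sizes of all 24 libraries were divided by the length of the canonical GENCODE transcript. SHMT2 was the highest member in DMSO-treated ALDHbr cells, at 123 CPM per kb in SUM159 and 139 CPM per kb in SW620. MTHFD1 followed in SUM159 (90.5 ± 0.4 CPM per kb, SD, n = 3), then PSAT1 (54.2 ± 5.9) and MTHFD2 (41.3 ± 1.8). In SW620 MTHFD1 (69.5 ± 1.1) and PSAT1 (67.5 ± 1.1) were close, ahead of MTHFD2 (48.5 ± 1.3). PSPH (36.3 ± 1.9) and SHMT1 (34.0 ± 2.3) did not differ beyond their spread in SW620, nor did PHGDH (18.0 ± 2.3) and MTHFD1L (18.4 ± 1.2). In SUM159 PHGDH (20.9 ± 2.5) and MTHFD1L (18.8 ± 0.9) were also within their spread, and PSPH (13.8 ± 0.3) and SHMT1 (9.64 ± 1.13) came below them. ASNS was at 0.404 and 0.408 CPM per kb in SUM159 and SW620, and ALDH1L2 at 0.041 and 0.0153. The place of ASNS in this ranking is uncertain, since how reads it shares with CZ1P-ASNS were counted is not given. Under NIF, PSAT1 in SW620 ALDHbr cells was at 184 ± 1 CPM per kb, beside 212 ± 10 for SHMT2.

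The ALDH populations of a line were compared under DMSO, since the study sorts cells by this activity. In SUM159 ALDHbr cells PHGDH was lower than in ALDHneg cells, at 37.6 to 47.0 against 67.0 to 71.6 CPM (log2 difference -0.75 ± 0.13, adjusted p = 0.000456). SHMT1 was lower as well, at 22.8 to 28.9 against 39.0 to 40.3 CPM (-0.61 ± 0.09, adjusted p = 0.000112). These 2 were the only members called, with 0 called higher, beside 10.7% of genes higher and 12.3% lower in ALDHbr cells. A total of 6 members and 5091 of all 14953 genes had an unadjusted p under 0.05, and DESeq2 called 1 member higher and 3 lower, beside 1832 and 1865 of all genes. PSPH (-0.12 ± 0.08), SHMT2 (-0.06 ± 0.06), MTHFD1L (0.07 ± 0.07), ALDH1L2 (-0.99 ± 0.45) and ASNS (-0.42 ± 0.26) were not called. With the replicate block 4 members were lower, PSAT1 (-0.25 ± 0.05, adjusted p = 0.000616) and MTHFD2 (-0.15 ± 0.04, adjusted p = 0.0109) joining, and MTHFD1 was higher (0.13 ± 0.04, adjusted p = 0.018), beside 18.2% of genes lower and 17.9% higher. Without the block PSAT1 (-0.24 ± 0.10, adjusted p = 0.0966), MTHFD2 (-0.15 ± 0.06, adjusted p = 0.0756) and MTHFD1 (0.13 ± 0.05, adjusted p = 0.0796) were not called. In that fit PSAT1 passed when ALDHbr DMSO replicate 3 was left out (-0.33, adjusted p = 0.0465). MTHFD1 passed when ALDHneg DMSO replicate 2 was left out (0.16, adjusted p = 0.0315).

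In SW620 1 member differed between the populations under DMSO. PSAT1 was called lower in ALDHbr cells, at 138 to 143 against 153 to 162 CPM (-0.18 ± 0.04, adjusted p = 0.022), and no member was called higher, beside 5.86% and 5.45% of genes. A count of 2 members and 4423 of all 13953 genes had an unadjusted p under 0.05, and DESeq2 called 0 members higher and 1 lower, beside 1028 and 1159 of all genes. PHGDH, SHMT2, MTHFD1, MTHFD2, MTHFD1L and ASNS differed by -0.02 to 0.04 and were not called, and ALDH1L2 was below the filter. ASNS was measured less precisely, with a 95% interval of -0.50 to 0.53. The PSAT1 call was lost with any one of ALDHbr DMSO replicate 3 and ALDHneg DMSO replicates 2 and 3 left out (adjusted p 0.0754, 0.0693 and 0.0748). It was also lost with the replicate block (adjusted p = 0.0525), in the fit of all 24 libraries (0.169) and in a fit of the 2 groups alone (0.0959). With all libraries PSPH (0.16 ± 0.06, adjusted p = 0.0789) and SHMT1 (0.14 ± 0.07, adjusted p = 0.167) were not called. Without ALDHbr DMSO replicate 2, PSPH (0.19, adjusted p = 0.0156) and SHMT1 (0.17, adjusted p = 0.0329) were called higher in ALDHbr cells.

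Whether NIF acted differently in ALDHbr and ALDHneg cells was tested as the difference of the responses within each line. In SUM159 0 of 10 members were called by edgeR, 0 had an unadjusted p under 0.05 and DESeq2 called 0, beside 0% of all genes (238 at an unadjusted p under 0.05 and 2 called by DESeq2), or 0.0401% with the replicate block. There PHGDH had the largest difference of the 10 (0.15 ± 0.18), MTHFD2 the lowest (-0.10 ± 0.08), and PSAT1, PSPH, SHMT1, SHMT2, MTHFD1, MTHFD1L, ALDH1L2 and ASNS lay between them. In SW620 0 of 9 were called by edgeR and 0 by DESeq2, beside 0.00717% of genes. MTHFD1L was the 1 member with an unadjusted p under 0.05: its response was smaller in SW620 ALDHbr than ALDHneg cells by 0.18 on the log2 scale (difference -0.18 ± 0.08, 95% interval -0.35 to -0.01, adjusted p = 0.9). For ASNS the difference was -0.38 ± 0.28, with an interval of -0.99 to 0.23. For the remaining SW620 members the intervals lay within -0.34 and 0.26, which is the precision these libraries gave.

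The other genes of these pathways were taken from lists, described by their counts. Of 13 tested further folate-cycle enzymes, 0 were called higher and 6 lower in SW620 ALDHbr cells, and the same numbers in ALDHneg cells, beside 21.4% of all genes higher and 21.9% lower in ALDHbr cells and 22.3% and 22.7% in ALDHneg cells. These shares also stand beside the other SW620 counts of lists. The lowest was TYMS, the thymidylate synthase (-0.71 ± 0.07, adjusted p = 2.8e-06, and -0.69 ± 0.07, adjusted p = 2.73e-06). The list's median was -0.21 in ALDHbr and -0.20 in ALDHneg cells. The genes called lower included mitochondrial enzymes, MTFMT in both populations and MTHFD2L in ALDHneg cells, named after their values were seen. In folate transport 1 of 6 tested genes was lower in ALDHbr cells, the folate carrier SLC19A1 (-0.45 ± 0.05), and 2 of 6 in ALDHneg cells, where the folate receptor FOLR1 was lowest (-1.27 ± 0.36, adjusted p = 0.0107). In SUM159 edgeR and DESeq2 each called 0 genes of these 2 lists in either population, and 1 folate-cycle enzyme had an unadjusted p under 0.05 in ALDHbr cells. With the replicate block 1 folate-cycle enzyme was called lower in ALDHbr cells (MTHFD2L) and 1 transport gene in ALDHneg cells (FPGS), both named after their values were seen. Of all SUM159 genes 0.936% were called higher and 2.23% lower in ALDHbr cells, and 1.10% and 2.20% in ALDHneg cells. With the block these shares were 5.77% and 7.56%, and 6.10% and 7.08%. They also stand beside the other SUM159 counts of lists.

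The glycine cleavage system had 1 of 3 tested genes called lower in each SW620 population, GCSH, the lipoate-bearing H protein (-0.69 ± 0.09 and -0.65 ± 0.09), and 0 called higher. Of 8 tested genes of serine and glycine handling, 4 were higher and 1 lower in SW620 ALDHbr cells and 3 higher and 2 lower in ALDHneg cells, beside 21.4% to 22.7% of all genes in each direction. SDSL, a serine dehydratase-like gene, rose most (1.05 ± 0.13 and 1.47 ± 0.13), and the lowest were the mitochondrial serine carrier SFXN1 in ALDHbr cells (-0.13 ± 0.05) and SPTLC2, of sphingolipid synthesis, in ALDHneg cells (-0.37 ± 0.10). Among 6 genes of the methionine cycle and transsulfuration, 2 were higher and 3 lower in both populations, beside the same shares of all genes. CTH, which makes cysteine from cystathionine, rose most (2.35 ± 0.10 and 2.72 ± 0.10). The lowest were MTAP, of methionine salvage, in ALDHbr cells (-0.38 ± 0.05) and MAT2B, a regulatory subunit of methionine adenosyltransferase, in ALDHneg cells (-0.45 ± 0.08). In SUM159 edgeR, with and without the block, and DESeq2 called 0 genes of these 3 lists, and 1 had an unadjusted p under 0.05 in each population.

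Around ASNS, 5 of 11 tested genes of aspartate, asparagine and glutamine handling were higher and 4 lower in SW620 ALDHbr cells, and 6 and 4 in ALDHneg cells, beside 21.4% to 22.7% of all genes in each direction. ASS1, which condenses aspartate with citrulline, rose most (1.60 ± 0.09 and 2.01 ± 0.09). The lowest were the asparaginase ASRGL1 in ALDHbr cells (-0.71 ± 0.12) and GLUL, which makes glutamine, in ALDHneg cells (-0.62 ± 0.05). In SUM159 edgeR called 1 of 9 higher in ALDHbr cells, the aspartate aminotransferase GOT1 (0.26 ± 0.06), and 2 of 9 in ALDHneg cells. It called none lower. Of all genes 0.936% and 1.10% were called higher there, and 2.23% and 2.20% lower. DESeq2 called 3 genes of this list higher and 1 lower in ALDHneg cells. With the replicate block 2 were higher in ALDHbr cells, beside 5.77% of all genes higher and 7.56% lower. In ALDHneg cells 3 were higher and 1 lower with the block, beside 6.10% and 7.08%.

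Of the 12 genes listed as ATF4 and stress-response reporters, 11 were called higher in each SW620 population, beside 21.4% and 22.3% of all genes, with a median of 1.32 in ALDHbr and 1.48 in ALDHneg cells. CHAC1, a glutathione-degrading enzyme, rose most (3.50 ± 0.12 and 3.31 ± 0.11), and TRIB3 (2.08 ± 0.07 and 2.12 ± 0.07), DDIT3 (1.66 ± 0.12 and 1.74 ± 0.12) and ATF4 itself (0.74 ± 0.08 and 0.85 ± 0.08) rose too. In SUM159 CHAC1 was the 1 of 12 called in each population (0.95 ± 0.22, adjusted p = 0.0284, and 0.82 ± 0.20, adjusted p = 0.0378), and ATF4 changed by 0.26 ± 0.09 (adjusted p = 0.125) and 0.23 ± 0.09 (adjusted p = 0.178). Of all genes 0.936% and 1.10% were called higher in these populations. With the replicate block 3 reporters, ATF4, TRIB3 and CHAC1, were called higher in ALDHbr cells and 4 in ALDHneg cells. In each population 1 reporter was called lower, DDIT4, named after its values were seen. With the block 5.77% of all genes were higher and 7.56% lower in ALDHbr cells, and 6.10% and 7.08% in ALDHneg cells. The part of ATF4 in the members' values was not tested.

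**Figure D3:**
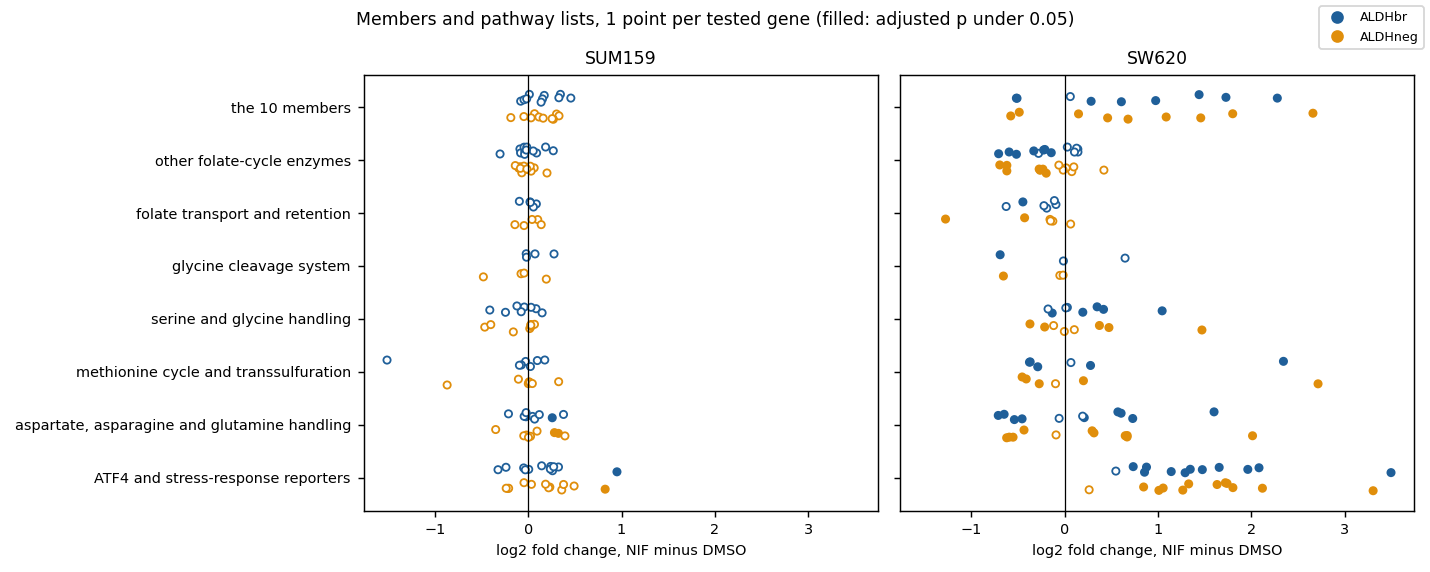
Log2 fold change under NIF (horizontal axis) of every tested gene of the 10 members and of 7 pathway lists, in SUM159 (left) and SW620 (right), with ALDHbr in blue and ALDHneg in orange and filled points past an adjusted p of 0.05. In SW620 the ATF4 and stress-response reporters reach 3.50 and lie right of 0, the further folate-cycle enzymes that are filled lie left of 0, and in SUM159 few points are filled.

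Among the genes whose log2 CPM followed PHGDH most closely over the 12 SW620 libraries were GSR and MVP (Pearson's r = 0.998 for both), and among those most like ASNS were KLF9 and MAFG (0.994 for both). In that line 1276 genes had an r over 0.9 with PHGDH and 1262 with ASNS, and the 12 libraries of a line fall into 4 groups that all genes share. In SUM159 the genes closest to PHGDH were CYTH3 (0.976), ABHD4 (0.974) and KLF2 (0.971), with 120 genes over 0.9. For ASNS they were CIDECP1 (0.916), TRIML2 (0.909) and HLX (0.904), with 3 genes over 0.9. Among the members, the r with PHGDH over the 12 SUM159 libraries ran from -0.859 for MTHFD1 to 0.903 for PSAT1, with 0.855 for MTHFD2 and 0.852 for SHMT1.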

How the data were processed

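Total RNA of sorted cells was made into stranded total RNA libraries. The authors deposited 1 table of raw read counts per gene for 24 libraries. The submitters' processing notes name FastQC, STAR and GRCh38, while versions, the counting tool, its strand setting and the annotation are not given in the sources used here. Per the study's methods, the 3 libraries of a group came from independent experiments, and p-values measure the spread between these libraries. The 24 pairs of replicate libraries differed by more than sampling noise (chi-square per gene 1.97 to 46.1), and all were kept. The highest values were those of SW620 ALDHbr DMSO replicate 2, at 46.1 from replicate 1 and 35.9 from replicate 3. Replicates 1 and 3 of that group differed by 6.52. Next came SW620 ALDHbr NIF replicates 1 and 3, at 30.1.

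The test was edgeR 4.0.16 in R 4.3.3 (TMM, filterByExpr with a minimum count of 10 and total of 15, quasi-likelihood test, Benjamini-Hochberg adjustment over all tested genes, threshold 0.05), with 1 fit per line over its 12 libraries and 1 fit over all 24 for differences between lines. DESeq2 1.42.0 was an alternative. Same-numbered libraries deviated together in SUM159 (18 of 18 correlations of deviations from group means over 0.1, 0.125 to 0.451), so values with the replicate block stand beside the SUM159 results they change. In SW620 1 of 18 was over 0.1 (-0.278 to 0.214). Log2 CPM for correlations used a prior count of 2. Ratios of counts were compared by exact permutation tests. The fits were tested on simulated data.

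Gene models and promoters came from RefSeq (GRCh38.p14), and transcript lengths from GENCODE. Reads of MTHFD2 and PSPH could be shared with their pseudogenes MTHFD2P1 and PSPHP1. All 10 members were covered in every comparison, by name or within a count or range. By rule, only the called genes of each list with the highest and lowest change, 4 ATF4 reporters, and genes among the 3 most like ASNS and PHGDH were named. Genes marked as named after their values were seen are outside it. Some genes that this rule would name are not reported here. The members and the lists were chosen with earlier results of these data known.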

Additional observations from a re-analysis of the deposited data

Results flagged for a closer look

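These differences between the lines passed the test of the difference itself (edgeR, NIF response in SW620 minus that in SUM159, log2 scale). In ALDHbr cells they were 1.27 for PHGDH, 1.09 for PSAT1, -0.53 for SHMT1, 0.65 for SHMT2, -0.49 for MTHFD1, 0.80 for MTHFD2 and 2.14 for ASNS. In ALDHneg cells they were 1.51 for PHGDH, 1.14 for PSAT1, 0.34 for PSPH, -0.64 for SHMT1, 0.66 for SHMT2, -0.43 for MTHFD1, 0.83 for MTHFD2, 0.35 for MTHFD1L and 2.50 for ASNS. For SHMT1 and MTHFD1 the NIF response was more negative in SW620 in both populations.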

How the results depend on the processing

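Of 1479 values of single members recomputed under other settings, 1391 kept their direction and their side of the threshold, 36 newly passed it, 22 no longer did and 30 changed sign. This tally leaves out the members' values of the difference of responses between ALDHbr and ALDHneg cells of SUM159. In SW620 ALDHbr cells every member's NIF call held under every setting run. In SW620 ALDHneg cells PSPH was the exception, lost in 9 fits, and 8 to 9 members were called without 1 library. In SUM159 ALDHbr cells (0 members called) 3 were called by DESeq2, 2 without a filter, 4 with the replicate block, 2 in a fit of all 24 libraries and 0 to 2 without 1 library. In SUM159 ALDHneg cells (1 called) these were 2, 2, 3, 2 and 0 to 1, and 0 in a fit of the 2 groups alone. Between SUM159 populations (2 called) 4 were called by DESeq2 and 5 with the replicate block or in the fit of 24. Between SW620 populations (1 called) 0 were called with the replicate block, in the fit of 24 or of the groups alone, and 0 to 3 without 1 library. The cause of these moves was not tested. Same-numbered SW620 libraries did not deviate together, so the block there shares only a number.

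Among all genes, the 473 and 493 calls under NIF in SUM159 ALDHbr and ALDHneg cells became 1994 and 1970 with the replicate block, 875 and 884 by DESeq2, 725 and 743 in the fit of 24, 222 to 322 and 192 to 584 without 1 library, and 292 in ALDHneg cells with the groups alone. The 3432 calls between SUM159 populations became 5388 with the block. The 1577 between SW620 populations became 729 with the groups alone and 712 to 5487 without 1 library. The 0 calls of a difference between ALDHbr and ALDHneg responses in SUM159 became 2 by DESeq2, 3 without a filter, 6 with the block and 1 in the fit of 24, and the 1 in SW620 became 29, 4, 2 and 4, and 4 by library totals, with 0 to 2 and 1 to 27 without 1 library.

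Sign changes were all of values near 0 or of very low counts. The ASNS difference between lines under DMSO, 0.012, was -0.017 by DESeq2 and with its kind of size factors, -0.14 by library totals, -0.0059 without a filter, -0.011 with the groups alone, -0.033 with at least 10 counts in every library, -0.035 with the replicate block, -0.028 with CZ1P-ASNS counts added (chosen after seeing the data) and -0.12 to 0.11 without 1 library. By library totals the SW620 difference of responses was 0.011 for PSAT1 and 0.0050 for MTHFD1. Without 1 library the NIF response in SUM159 ALDHneg cells was -0.018 to 0.12 for SHMT1, -0.013 to 0.065 for SHMT2 and -0.028 to 0.41 for ASNS, and in ALDHbr cells -0.10 to 0.67 for ALDH1L2 and -0.069 to 0.10 for SHMT1. The SW620 difference of responses was -0.038 to 0.0090 for PSAT1. Between SW620 populations the values were -0.039 to 0.12 for PHGDH, -0.13 to 0.11 for ASNS, -0.014 to 0.071 for SHMT2 and -0.024 to 0.060 for MTHFD1L. Between lines they were -2.23 to 0.51 for the ALDH1L2 response in ALDHneg cells and -0.086 to 0.020 for MTHFD1L under DMSO. ALDH1L2 passed the filter of the fit of both lines only through its SUM159 libraries, and no comparison is drawn from its values. In the 250 bases before the start alone, the NRF2 element was in 0 member windows, and the ATF4 core and E-box each stayed in 2. ASNS and ALDH1L2 rest on few counts, and for ASNS the reads it may share with CZ1P-ASNS are a further limit.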
